A study of Mus musculus with 22 samples.

Results

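This comparison set Purkinje cells (PCs) that had lost Tsc1 and came from rapamycin-treated mice against PCs of untreated control mice. It asked which ribosome-bound transcripts differed from the control after treatment. The groups differ in both genotype and rapamycin, so effects of genotype and of rapamycin cannot be told apart in it. The members were the 3 treated mutant and 3 untreated control libraries of translating ribosome affinity purification (TRAP), 6 of the 22 samples of the study, and every locus with a mean log2(value + 1) of 2 or more over them, which left 9429 of 66494 loci. Mutant mice were Tsc1 fl/fl and control mice Tsc1 +/+. All of them carried L7Cre, a Cre driven by the PC-specific Pcp2 promoter, and Rosa26fsTRAP, which puts an EGFP-tagged ribosomal protein RPL10A into cells where Cre has acted, and the labels give the strain background as C57BL/6. Each library came from the cerebellum of 1 animal, homogenised whole before tagged ribosomes were pulled down with antibodies to GFP. The labels gave neither the age of the mice nor the dose or schedule of rapamycin, and the tag marks whichever cells Cre has acted in. The remaining TRAP groups, untreated mutants and rapamycin-treated controls with 3 libraries each, are given beside the comparison where they bear on it. Tsc1 itself has no named locus, so the genotype could not be checked on it.

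TSC1 and TSC2 form a complex that restrains mTOR complex 1, the kinase that matches protein synthesis to nutrients and growth factors, and rapamycin inhibits that kinase after binding FKBP12, the product of Fkbp1a. Loss of Tsc1 in PCs, the GABAergic output neurons of the cerebellar cortex, leaves mTOR signalling unrestrained in these cells. TRAP reads the RNA that comes down with tagged ribosomes, so besides messenger RNA it can hold ribosomal RNA and other small structured RNA.

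The value of a locus was a Cufflinks estimate of its fragments divided by a size factor for the library. Treated mutant libraries held 2472846, 3369425 and 3163718 estimated fragments, and untreated control libraries held 4901628, 5726720 and 6380042, so the groups did not overlap in depth. A single fragment was also worth more in the treated mutants, 1.81, 1.35 and 1.85 value units against 0.851, 0.627 and 0.557 in the controls. Low loci were the less precise for it, and a value of 0 stands at 0 on the log2(value + 1) scale used throughout, a scale that understates the fold change of low loci. Across loci the levels of treated mutant 2 correlated at 0.73 and 0.72 with those of treated mutants 1 and 3, which correlated at 0.84 with each other, and the controls correlated at 0.70 to 0.81 among themselves. Only 942 of the 9429 loci carry a gene name, taken from the gene lists that accompany the study. Those lists were drawn in part from the same untreated control libraries. Of the 942, 145 are in the list of untreated mutant against untreated control TRAP. So the named loci are not a random sample of the loci, and the direction of a named locus is not independent evidence.

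Few loci differed. At an unadjusted limma p under 0.01 and a log2 fold change beyond 1 in either direction, 77 of 9429 loci passed (0.817%), with 42 higher in the treated mutants (0.445%) and 35 lower (0.371%). In all 77 the 3 treated mutant libraries lay entirely above or below the 3 controls, which was also true of 1065 of the 9429 loci (11.3%). At a Benjamini-Hochberg adjusted p under 0.05 only 6 loci remained (0.0636%), against 474 with an unadjusted p under 0.05, and these 6 were all listed at 0 in every untreated control. Among loci above 0 in at least 1 control the smallest adjusted p was 0.746. Where no locus differs, an unadjusted p under 0.05 is met at a rate of about 0.05, and 474 of 9429 is near that rate. The share past the thresholds, 0.817%, is below the rate of 0.01 that the p threshold alone would give. These counts thus do not show that any given locus differed. The median log2 fold change over all loci was 0.0083, with an SD of 0.036 between the treated mutant libraries, and 49.5% of the loci lay below 0. Of the 77 loci, 31 have a gene name (18 lower and 13 higher), and 58 had a median of at most 30 fragments in the group where they were higher. Among the 515 loci with a mean log2 value of 7 or more, 93.6% differed by less than 1 on the log2 scale and 5 passed the thresholds: the rRNA loci n-R5s46 and Gm24601, both lower, and 3 of the loci listed at 0 in every control (the limits of 30 and 7 were chosen after the values were seen). The split by direction depended on single libraries and on scaling. The share that was lower, 45.5%, was 14.3% without control 1 and 80.9% without treated mutant 2. With libraries set to equal totals the median over all loci moved to -0.35, and 85.5% of the loci past the thresholds were lower.

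**Figure D1:**
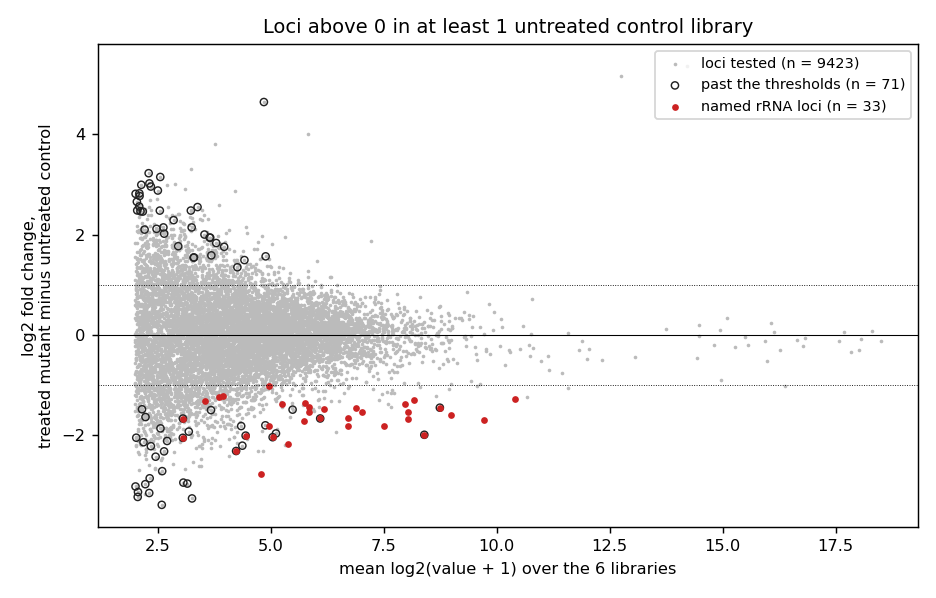
Log2 fold change (treated mutant minus untreated control, vertical axis) against the mean log2(value + 1) over the 6 libraries (horizontal axis) for loci above 0 in at least 1 control library; open circles mark loci past the thresholds and red points the 33 named rRNA loci, and dotted lines mark a change of 1. Most loci past the thresholds sit at the low end, and all 33 red points lie below 0.

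Ribosomal RNA loci lay low as a class in the treated mutants. The annotation of the same genome build (GENCODE M21, GRCm38) classes 33 of the named loci as rRNA genes, 26 of them dispersed copies named n-R5s for 5S rRNA, the small RNA of the large ribosomal subunit. Reads can be shared among copies this alike. The sequences of 7 of the 8 that passed the thresholds are shown as the annotation's transcripts, 5′ to 3′, because their likeness bears on how far the copies can be read apart. Capitals mark every base in a stretch of 20 letters that occurs without a mismatch in at least 1 of the other 32 rRNA loci. A longer run of capitals can join overlapping stretches from different loci.
n-R5s46: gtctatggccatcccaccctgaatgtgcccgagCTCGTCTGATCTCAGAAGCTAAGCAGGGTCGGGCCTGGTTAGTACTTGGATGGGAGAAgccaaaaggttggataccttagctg
n-R5s209: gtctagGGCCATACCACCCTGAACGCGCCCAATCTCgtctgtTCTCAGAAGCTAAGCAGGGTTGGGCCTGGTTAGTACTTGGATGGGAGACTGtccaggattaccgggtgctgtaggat
Gm22816: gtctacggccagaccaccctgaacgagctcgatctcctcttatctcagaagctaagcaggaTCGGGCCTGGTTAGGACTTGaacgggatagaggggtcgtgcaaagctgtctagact
n-R5s41: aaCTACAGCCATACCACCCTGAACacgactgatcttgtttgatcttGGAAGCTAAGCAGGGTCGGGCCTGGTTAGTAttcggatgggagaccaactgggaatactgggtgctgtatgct
n-R5s150: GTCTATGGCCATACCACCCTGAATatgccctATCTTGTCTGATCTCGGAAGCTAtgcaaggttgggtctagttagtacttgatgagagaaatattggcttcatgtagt
n-R5s205: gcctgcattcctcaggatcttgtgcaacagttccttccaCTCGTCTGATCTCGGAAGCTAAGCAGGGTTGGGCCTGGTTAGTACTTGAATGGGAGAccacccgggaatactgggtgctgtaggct
Gm24601: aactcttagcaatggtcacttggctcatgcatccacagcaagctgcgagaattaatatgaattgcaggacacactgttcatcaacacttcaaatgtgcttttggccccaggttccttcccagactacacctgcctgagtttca

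The n-R5s46 locus lies at chr14:36855929-36856044 on the minus strand, n-R5s209 at chr1:26959103-26959221 (minus) and Gm22816 at chr5:90893380-90893496 (plus). The n-R5s41 locus lies at chr15:82342653-82342771 (plus), n-R5s150 at chr7:6512235-6512342 (plus), n-R5s205 at chr2:120640711-120640835 (minus) and Gm24601 at chr6:94826781-94826923 (minus). In n-R5s209, 68.1% of the bases lay in such shared stretches, and in n-R5s205, 45.6%. Gm24601 shared no stretch with the other rRNA loci, the only 1 of the 33 that did not. Only these 33 were compared, so stretches shared with rRNA copies elsewhere in the genome were not counted, for Gm24601 or the rest. Whether reads of Gm24601 are its own was not tested. Over the 33 loci the median share was 57.1%, so the fragments given to any single 5S copy are uncertain and the copies are not independent measurements.

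Among the rRNA loci, n-R5s46 and Gm24601 were the most abundant of those past the thresholds. For n-R5s46 the log2 values were 7.22, 8.04 and 6.94 in the treated mutants and 9.80, 9.06 and 9.32 in the untreated controls (log2 fold change -1.99, SE 0.46, 95% interval -3.08 to -0.90, adjusted p = 0.884). All 3 treated mutants lay below all 3 controls, with treated mutant 2 nearest to them. This locus held 66 to 195 fragments in the treated mutants and 851 to 1145 in the controls, far from the floor. Its adjusted p fell under 0.05 with a pseudocount of 10 (0.0497), with an intensity trend in the variance model (0.0142) and with limma-voom (0.0442), but not in the other settings tried. Gm24601 stood at 7.83, 8.15 and 8.07 against 9.78, 8.97 and 9.64 (log2 fold change -1.45, SE 0.41, 95% interval -2.41 to -0.49). The 3 treated mutants of Gm24601 lay within 0.32 of each other and below every control.

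The other rRNA loci past the thresholds had log2 fold changes between -2.31 for n-R5s41 and -1.67 for n-R5s209. For n-R5s209 the treated mutants gave 4.90, 5.95 and 4.93 and the controls 7.38, 6.57 and 6.83. For Gm22816 they gave 3.33, 4.94 and 3.80 and 6.56, 5.71 and 5.91. In both, treated mutant 2 was again the highest of its group and still below the lowest control. The n-R5s41, n-R5s150 and n-R5s205 loci were lower in level, with at most 14 fragments in a treated mutant library. Taken over the class, 33 of 33 rRNA loci had a fold change below 0 (49.5% of all loci did), with a median of -1.60 and a range of -2.76 (n-R5s213) to -1.02 (Gm25675). In 29 of the 33 every treated mutant lay below every control, which held for 5.78% of all loci, and 8 of the 33 passed the thresholds downwards (0.371% of all loci). Of the 33, 31 are named because the study listed them as differing between untreated mutants and the same untreated controls, so their direction here was partly fixed by how they came to be named. The number past the thresholds turned on single libraries: it was 26 without treated mutant 2, and 0 without treated mutant 1 or without control 1.

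On the list of 5S, small nucleolar (snoRNA), small Cajal body, small nuclear (snRNA) and Y RNA loci, 37 were named and tested, 36 had a fold change below 0, and the median was -1.47, with 24 of 37 separated downwards and 6 past the thresholds, all of them 5S loci. Of the 37, 26 are the 5S loci already counted among the rRNA loci. By the annotation's classes, 9 of 9 snRNA loci were below 0 with a median of -1.16, and 4 of 9 were separated downwards. Of the snoRNA loci 11 of 12 were below 0 with a median of -1.0, and 3 of 12 were separated downwards, beside 5.78% of all loci. In untreated mutant minus untreated control 8 of the 9 snRNA and 5 of the 12 snoRNA loci passed the thresholds downwards (1.96% of all loci passed either way). That comparison supplied part of the names and shares these controls. As for the rRNA loci, the direction of these classes was thus partly fixed by how they came to be named. No snRNA locus passed the thresholds. Rnu12, the U12 RNA of the minor spliceosome, gave 7.73, 8.77 and 7.62 in the treated mutants against 9.40, 8.82 and 9.59 in the controls, a fold change of -1.23 that missed the p threshold (95% interval -2.36 to -0.092). The 3 treated mutants of Rnu12 lay below the 3 controls by a narrow margin. Rny3, a Y RNA, gave 10.13, 10.89 and 9.12 against 11.70, 10.03 and 12.10, and here the groups overlapped. Of the snoRNA loci, Gm26165 and Gm22711 passed: Gm26165 gave 2.21, 0 and 1.51 against 3.69, 3.46 and 3.84, and the library values of both rest on fewer than 30 fragments. Snord13 was the 1 member of the list above 0, at 0.28. Protein-coding loci had a median of 0.057 over 855 loci.

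In the other TRAP groups the 5S loci held the following levels. Summed over the 26 named 5S loci, the value was 2129, 5073 and 1907 in the treated mutants and 10594, 6245 and 7780 in the untreated controls. It was 2686, 1346 and 1852 in the untreated mutants and 2543, 12441 and 6992 in the treated controls. Treated mutants 1 and 3 lay within the range of the untreated mutants and treated mutant 2 above it, while treated control 1 fell among the mutants. As a share of all values, the 26 loci took 0.0476, 0.112 and 0.0327% of the treated mutant libraries and 0.254, 0.174 and 0.219% of the untreated control libraries. The shares were 0.0510, 0.0262 and 0.215% in the untreated mutants and 0.0588, 0.329 and 0.232% in the treated controls, so by share untreated mutant 3 lay among the controls. For the 33 rRNA loci the median log2 fold change of untreated mutant minus untreated control was -2.14, with all 33 below 0 (45.4% of all loci were) and 31 past the thresholds downwards (1.96% of all loci passed either way). For treated mutant minus untreated mutant it was 0.49, with 3 of 32 below 0 (53% of all loci). For treated control minus untreated control it was -0.61, with 24 of 33 below 0 (62.1% of all loci) and 0 past the thresholds (1.05% of all loci). Treated mutant minus treated control uses neither group from which the names were drawn: there 32 of 33 were below 0 with a median of -1.10, none passed the thresholds (1.23% of all loci did), and over all loci of that comparison 37% were below 0 and the median was 0.32. These comparisons share libraries with each other, so their values stand side by side only.

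**Figure D2:**
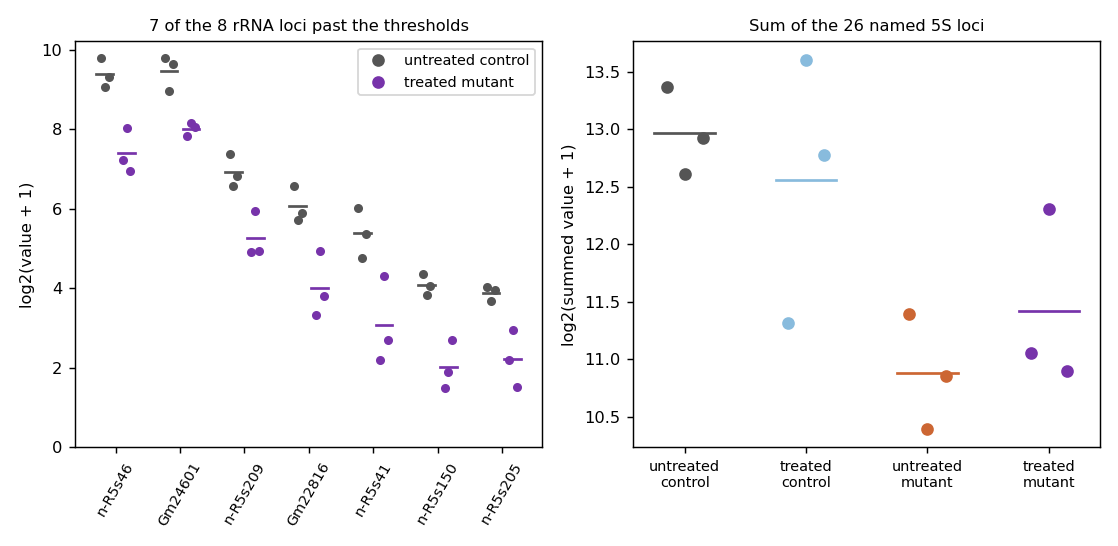
Left, log2(value + 1) in each library (points, with group means as bars) for 7 of the 8 rRNA loci past the thresholds; right, log2 of the summed value of the 26 named 5S loci in each library of the 4 TRAP groups, on an axis that does not start at 0. At each of the 7 loci the 3 treated mutants lie below the 3 untreated controls, and in the sum treated mutant 2 stands above the other treated mutants.

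The 6 loci that met the adjusted threshold were all listed at 0 in the controls. They passed the filter on low values through the treated mutants alone and so had to differ, and their p-values support nothing further. They were also the only tested loci listed at 0 in all 3 untreated controls, and no tested locus was listed at 0 in all 3 treated mutants. A locus overlapping E030025P04Rik on the opposite strand, so not that gene itself, gave 19.70, 19.91 and 20.16 on the log2 scale in the treated mutants, which was 19.1 to 21.7% of everything counted in those libraries. A locus with partial exon overlap to Tbc1d23, a gene of endosome-to-Golgi transport, gave 18.35, 18.68 and 18.83, or 7.47, 9.24 and 7.95%. In both, the identity of the transcript is uncertain. No source used here says that reads were counted by strand, so reads of a gene and its antisense partner cannot be told apart. At such levels a value of 0 in each of 3 deeper libraries is a statement about the estimate listed, and whether the estimate failed there was not tested.

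The other 4 were lower. Tomm70a, a receptor of the mitochondrial outer membrane that takes in precursor proteins, gave 5.79, 5.71 and 5.10 in the treated mutants. Gad2, which encodes one form of the GABA-synthesising enzyme, gave 6.01, 5.42 and 5.82. Gad1, which encodes the other form, was well above 0 everywhere, at 8.29, 8.46 and 7.76 against 7.95, 8.46 and 7.59, and its groups overlapped. The last 2 loci carry no name.

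The zeros fell in shared patterns over the 12 TRAP libraries. Tomm70a and the Tbc1d23 locus, whose genes lie 12.2 kb apart on chromosome 16, were both above 0 in all 6 mutant libraries and in treated control 2 only among the controls. Gad2 and the 2 unnamed loci were above 0 in the 3 treated mutants, in untreated mutants 1 and 3 and in treated control 1, and listed at 0 in the other 6 libraries. For Gad2 those values were 5.10, 0 and 5.62 in the untreated mutants and 4.64, 0 and 0 in the treated controls. The E030025P04Rik locus was above 0 in the 6 mutant libraries and in no control library. Apart from these, 2 unnamed loci of high level were listed at 0 in untreated control 3 and treated control 1 and above 0 in the other 10 libraries. With loci at 0 in every library of a group left out, no locus met the adjusted threshold, while 469 had an unadjusted limma p under 0.05.

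**Figure D3:**
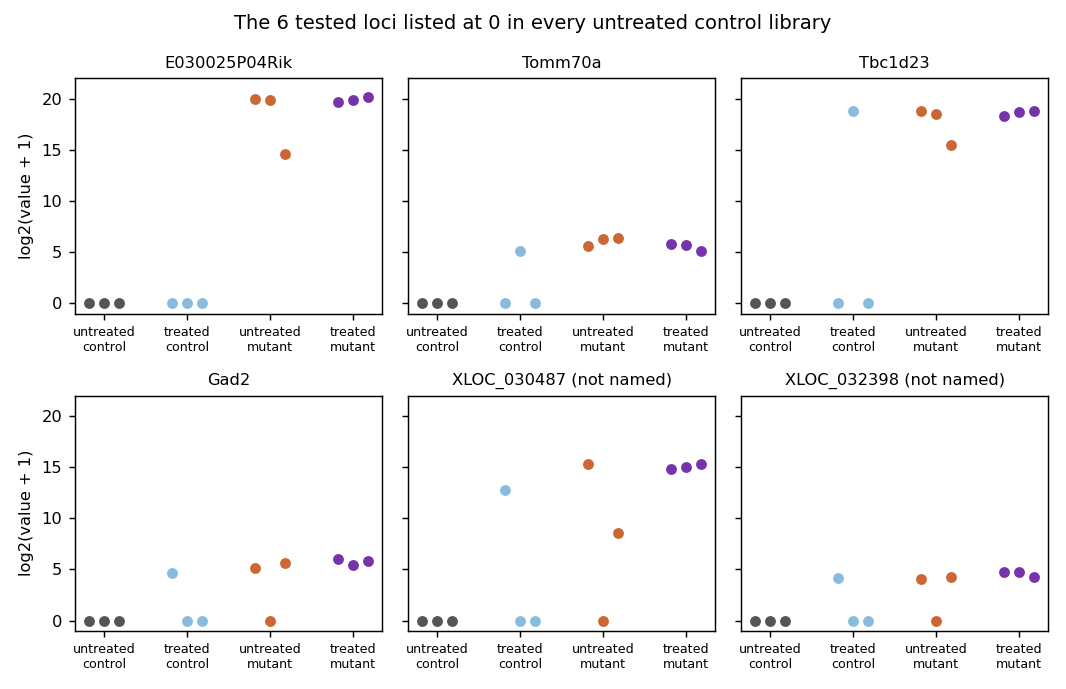
Log2(value + 1) in each of the 12 TRAP libraries (points; replicates 1 to 3 from left to right within a group) for the 6 loci listed at 0 in every untreated control. The 3 treated mutants sit at like levels at each locus, and single libraries of the untreated mutant and treated control groups are at 0 at one locus and well above it at another.

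Beyond the rRNA and snoRNA loci, 8 named loci were lower past the thresholds, 7 of them protein coding, and none met the adjusted threshold (adjusted p = 0.884 for each, limma). Dck, the deoxycytidine kinase of nucleoside salvage, gave 3.04, 2.68 and 3.07 in the treated mutants and 4.42, 4.67 and 4.19 in the controls (log2 fold change -1.50, SE 0.38). Its untreated mutants stood at 5.02, 4.65 and 4.37, close to the controls, and its treated controls at 5.94, 4.69 and 3.86. Treated minus untreated mutant was -1.75 (adjusted p = 0.441, limma), past the thresholds (1.75% of all loci passed in that comparison), and treated mutant minus treated control was -1.90 (adjusted p = 0.849, limma), which missed them. Each treated mutant library held 4 fragments of Dck, and the controls 24 to 39.

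Pde6d, a chaperone that carries prenylated proteins between membranes, gave 3.77, 3.83 and 2.71 against 5.65, 4.63 and 5.47 (log2 fold change -1.82, SE 0.51). Mospd2, a tether of the endoplasmic reticulum, gave 1.49, 1.89 and 1.51 against 3.69, 2.73 and 4.05. Atraid, a gene induced by retinoic acid, gave 2.21, 0 and 2.23 against 3.69, 3.76 and 3.95. These 3 were lower in every treated mutant than in any control, but the treated mutants held at most 10 fragments of any of them, and no more than 2 of Mospd2 or Atraid.

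Mycbp, which encodes a binding partner of MYC, gave 2.68, 0 and 0 against 4.30, 4.0 and 4.54. Zbtb48, a zinc finger protein that binds telomeres, gave 1.49, 0 and 0 against 4.10, 2.73 and 4.05. The long intergenic RNA 5031425E22Rik gave 2.21, 0 and 0 against 3.49, 3.94 and 4.23. In each of these 3 only treated mutant 1 was above 0, with at most 3 fragments, so no size is read from them beyond the values. B230307C23Rik was at 1.49, 0 and 1.51 against 3.37, 2.73 and 3.04, a locus listed at 0 in every treated control.

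Of the 13 named loci that were higher past the thresholds, 4 were those listed at 0 in every control, and 9 were above 0 in at least 1 control. Terf2ip, a subunit of the shelterin complex at telomeres, gave 5.47, 5.0 and 5.02 in the treated mutants and 3.59, 4.11 and 3.31 in the controls (log2 fold change 1.49, SE 0.41, adjusted p = 0.884, limma). Its untreated mutants gave 5.46, 4.65 and 5.14 and its treated controls 4.46, 3.54 and 3.17, so both mutant groups lay above both control groups. Gatm, the first enzyme of creatine synthesis, gave 4.81, 4.94 and 4.14 against 2.61, 3.54 and 1.92 (log2 fold change 1.94, SE 0.53). For Gatm the treated controls, at 5.22, 4.64 and 4.33, were as high as the treated mutants, from which they differed by -0.099 (adjusted p = 0.981, limma).

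Msrb1, a selenoprotein that repairs oxidised methionine, gave 3.57, 4.41 and 4.41 against 0, 1.53 and 1.42 (log2 fold change 3.15, SE 0.55, adjusted p = 0.746, limma). The untreated mutants gave 2.78, 3.53 and 3.84, and Msrb1 was listed at 0 in all 3 treated controls. Gm10800, a predicted gene, had the largest fold change of those above 0 in a control, with 8.08, 7.78 and 5.65 against 0.89, 2.16 and 4.54 (log2 fold change 4.64, SE 1.05). Its values were the most scattered of the group, spanning 3.65 log2 units over the controls alone, and its adjusted p fell under 0.05 with a pseudocount of 10 (0.00364) and with an intensity trend (0.0395).

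The other higher loci were near the floor. Tmem181a, a membrane protein, gave 4.11, 3.38 and 3.59 against 1.43, 2.59 and 0.64, and the zinc finger gene Zfp235 gave 3.77, 2.68 and 3.80 against 0, 1.81 and 0. Zfp275, Aftph and Rbpms2 had fold changes of 3.02, 2.29 and 2.46, but their loci only partly overlap the gene or lie on its opposite strand, so the names are uncertain. None of these 5 held more than 18 fragments in a treated mutant library.

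Among the gene lists for PC physiology, Gad2 was the 1 member past the thresholds, where 0.817% of all loci passed and lists this short would hold few or none at that share. Of the 20 tested calcium genes (release, entry, buffering and extrusion) 11 lay below 0, with a median of -0.12 and a range from Tmem38b at -1.30 to Orai2 at 1.74, and none passed. Of the 21 genes of the parallel fibre postsynapse 9 lay below 0 (median 0.11, Dagla at -0.69 to Camk2n1 at 0.90). The 14 ion channel genes had a median of -0.078 (Kcnj3 at -0.93 to Panx2 at 1.10) and the 12 G-protein genes one of -0.26 (Gprc5b at -0.95 to Plcb3 at 1.06). The 17 genes of GABA synthesis and release had a median of 0.15 without Gad2, which was the 1 member past the thresholds. The 8 transcription factors of the cerebellar lineage had a median of -0.20 (Skor2 at -1.0 to Tfap2b at 0.61). Beside these, the median over all 9429 loci was 0.0083. Medians this close to it change sign with the scaling: with equal library totals those of the postsynaptic and GABA lists became -0.27 and -0.21, while the median over all loci was -0.35.

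Among the lists of growth and maintenance genes, Tomm70a was the 1 member past the thresholds, beside the same 0.817% of all loci. Of the 14 tested genes of the mTOR pathway 6 lay below 0 (median 0.13, Prkag2 at -0.38 to Pik3cb at 0.97), and of the 14 translation genes 4 (median 0.29, Rpl5 at -0.46 to Pabpc1 at 0.71, the Rpl5 locus overlapping that gene only in part). The 20 genes of the RNA exosome and its cofactors had a median of -0.093 and the widest range, from Exosc2 at -2.13 to Zcchc8 at 1.51. The 29 mitochondrial genes had a median of 0.13 without Tomm70a, the 1 member past the thresholds. The 8 proteasome genes had a median of 0.099 (Psmd8 at -0.17 to Psmd7 at 1.04), the 24 cytoskeletal genes 0.16 (Kif17 at -0.78 to Mapre1 at 1.25), the 15 stress and cell death genes 0.13 (Gclm at -1.60 to Dusp1 at 1.25) and the 4 clock genes 0.41 (Per2 at -0.74 to Nr1d1 at 0.73). None of the other members of these lists passed the thresholds. In the untreated mutants, set against the same controls, the medians of the lists other than small RNA ran from -0.19 for calcium genes to 0.87 for stress and cell death genes, beside 0.40 over the named protein-coding loci and 0.068 over all loci of that comparison. With equal library totals the medians above 0 in the treated mutants turned below 0, except that of the clock genes, while the median over all loci moved to -0.35.

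**Figure D4:**
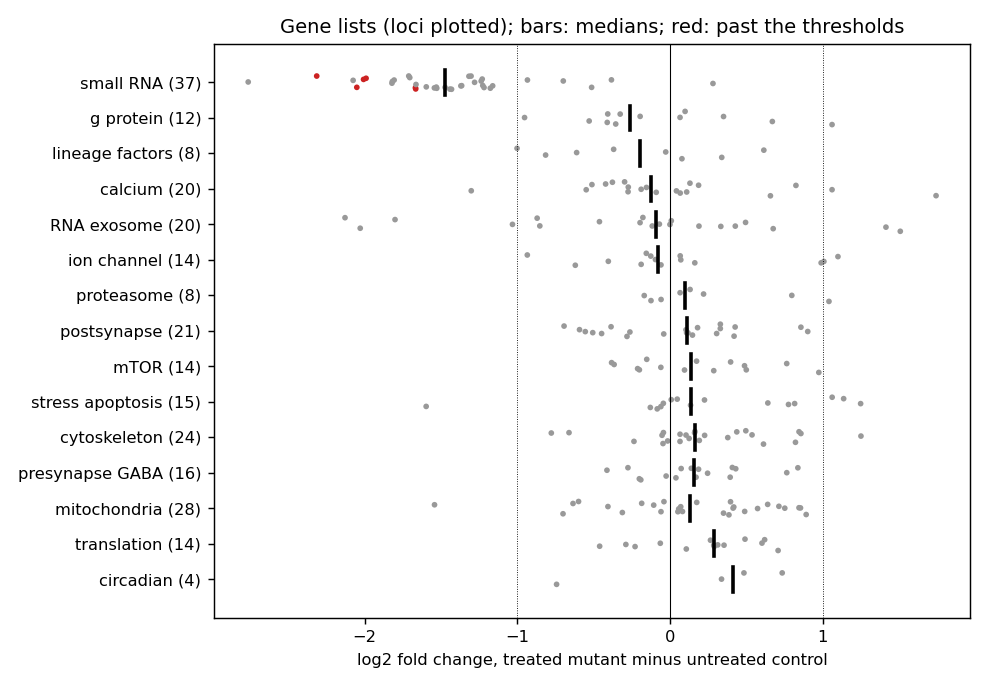
Log2 fold change (horizontal axis) of each tested locus above 0 in a control, by gene list (rows, with the number of loci plotted); vertical bars are list medians, red points loci past the thresholds, and dotted lines a change of 1. The small RNA list stands to the left with a median of -1.47, and the medians of the other lists lie between -0.26 and 0.41.

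A few single genes were also read in all 4 groups. Itpr1, the calcium release channel of the PC endoplasmic reticulum, gave 11.39, 11.86 and 11.53 in the treated mutants and 11.70, 11.63 and 11.32 in the untreated controls, a difference of 0.042 with a 95% interval from -0.85 to 0.94. Its untreated mutants gave 10.53, 10.55 and 10.48, all below every other library, and treated minus untreated mutant was 1.07 (adjusted p = 0.569, limma), just short of the unadjusted threshold. Fkbp1a gave 7.87, 7.91 and 8.08 against 8.34, 8.02 and 8.61, a difference of -0.37 (95% interval -1.26 to 0.53). The untreated mutants of Fkbp1a gave 8.89, 8.81 and 8.92, above every library of the other 3 groups.

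Shank2, a scaffold of the postsynaptic density, gave 8.50, 8.62 and 9.16 against 8.12, 8.39 and 8.49, a difference of 0.43 (95% interval -0.50 to 1.36). Cdk16, a cyclin-dependent kinase of neurons, gave 8.44, 8.53 and 9.14 against 8.62, 8.10 and 8.51, a difference of 0.29 (95% interval -0.67 to 1.25). The Shank2 groups were just separated and those of Cdk16 overlapped. Doc2b, a calcium sensor of vesicle release, differed by 0.073 (95% interval -0.96 to 1.11) and Camk2a, a calcium-dependent kinase, by -0.26 (-1.30 to 0.78). Dis3, the catalytic subunit of the RNA exosome, gave 3.95, 0 and 0 against 3.49, 2.73 and 3.14, and 2 of its 3 treated mutant libraries were listed at 0. These intervals allow changes in either direction, so equal levels are not shown.

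Cell type markers were read in the purified RNA. No library of unpurified cerebellum was compared, so enrichment for PC RNA was not tested. All 22 listed PC markers were named and tested, and 17 of them had a fold change below 0 with a median of -0.28. In 7 of the 22 every treated mutant lay below every control, beside 5.78% of all loci, but none of these passed the thresholds. Pcp2, the gene whose promoter drives Cre, gave 10.58, 10.65 and 10.63 against 11.0, 10.46 and 10.99, and Calb1, a calcium buffer of PCs, gave 10.29, 10.49 and 10.34 against 10.65, 10.50 and 10.79. Car8 and Rgs8, further abundant PC transcripts, differed by -0.42 and -0.41. Summed over the 22 loci the value ran from 12479 to 13658 in the treated mutants and from 13778 to 16150 in the untreated controls. It ran from 11519 to 13036 in the untreated mutants and from 11129 to 12352 in the treated controls. By these sums the untreated controls stood above every other library, but not by share of all values. The 22 loci took 0.234 to 0.288% of the treated mutant libraries and 0.379 to 0.455% of the untreated control libraries. In the untreated mutants they took 0.238 to 1.34%, and in the treated controls 0.257 to 0.410%. Set against them, 16 of 21 markers were below 0 in the untreated mutants (median -0.35, beside 45.4% of all loci). In the treated controls 19 of 21 were (median -0.52, beside 62.1%). Treated mutant minus treated control was below 0 for 9 of 22 (median 0.20, beside 37%). These are bulk purifications, so fewer PCs and less RNA per PC cannot be told apart, and the cause was not tested.

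Of the markers of other cells, those of microglia and of vascular cells were low in both groups. Of 13 named microglial markers and 10 named vascular markers none reached the expression filter: microglial values summed to 3.62 to 22.2 in the treated mutants and 0 to 8.16 in the controls, and vascular values to 1.81 to 2.7 and 0 to 1.25. In the treated mutants 6 of the 13 microglial and 7 of the 10 vascular markers were at 0 in every library, and in the controls 7 and 8 were. The untreated mutants held more of both, 48.2 to 98.1 and 26.1 to 51.0, with the loci chosen in part because they differed there. Astroglial values summed to 61.0 to 196 over 7 named markers in the treated mutants, 105 to 205.3 in the controls and 387 to 522 in the untreated mutants. Of the 4 astroglial markers tested 3 lay below 0, among them Bcan at -1.34 and Tnc at -1.24, both matrix genes, and none passed the thresholds. Values of 3 named oligodendrocyte markers summed to 64.6 to 94.1 in the treated mutants and 40.1 to 60.2 in the controls, and those of 4 interneuron markers to 56.6 to 76.0 and 90.2 to 145. Their part in the results was not tested. No granule cell marker was named.

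Gfap, the intermediate filament of astroglia, gave 5.07, 4.58 and 5.56 in the treated mutants and 4.17, 5.51 and 4.57 in the controls, a difference of 0.32 with overlapping groups. The untreated mutants gave 7.81, 7.12 and 7.45, and treated minus untreated mutant was -2.39 (past the thresholds, adjusted p = 0.393, limma). Apoe, a lipid carrier made by glia, gave 5.70, 4.89 and 6.73 in the treated mutants, 5.92, 6.77 and 5.06 in the controls and 8.04, 7.79 and 7.68 in the untreated mutants. Its treated minus untreated mutant difference was -2.06 (past the thresholds, adjusted p = 0.509, limma). For both genes the treated mutants overlapped the controls and lay below all 3 untreated mutants. In untreated mutant minus untreated control the 4 astroglial markers tested did not move together: 2 passed the thresholds upwards, 2 were below 0, and 1 passed downwards. Loci were named in part because they differed there. A lower value in the treated than in the untreated mutants was thus partly fixed by that choice, and an effect of rapamycin cannot be read from it. Cck, a peptide gene used as an interneuron marker, gave 5.59, 5.59 and 5.17 against 6.81, 6.32 and 6.36, a difference of -1.05 (95% interval -1.96 to -0.14, not past the thresholds). Its untreated mutants gave 5.02, 4.65 and 4.07 and its treated controls 4.03, 5.29 and 5.78, so the untreated controls stood above the other 3 groups.

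**Figure D5:**
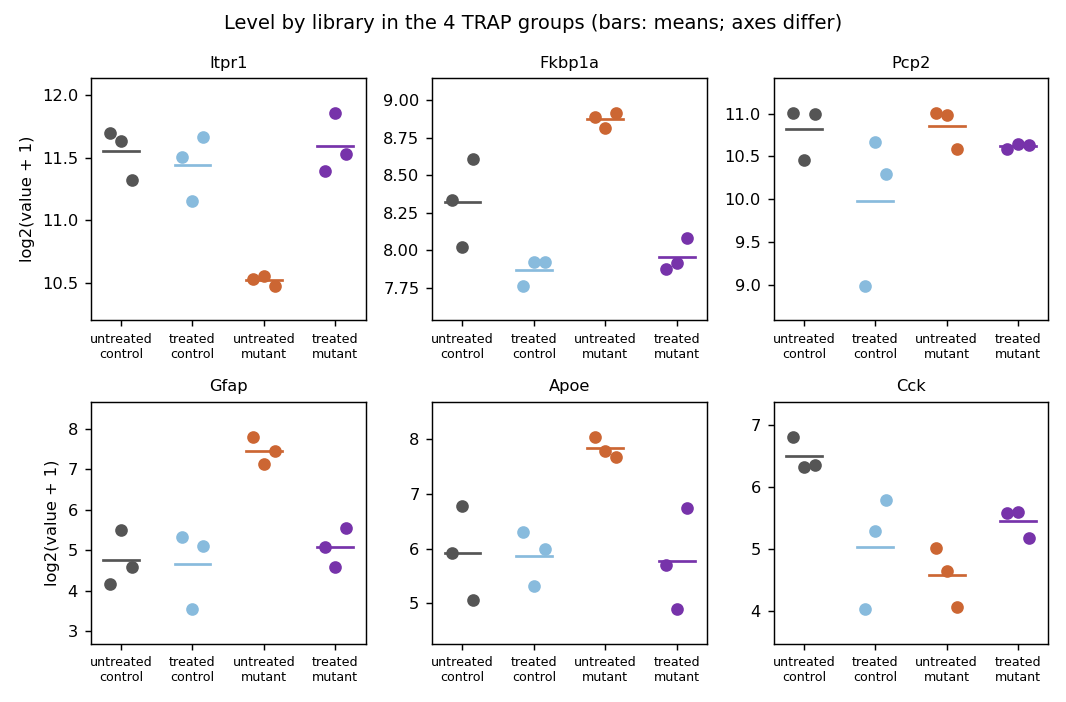
Log2(value + 1) in each library (points, with group means as bars) of the 4 TRAP groups for 6 genes; each vertical axis has its own range and does not start at 0. Treated mutants sit with the untreated controls for Itpr1, Gfap and Apoe, where the untreated mutants stand apart, and below the untreated controls for Cck. Loci were named in part because the untreated mutants differed from these controls.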

How the data were processed

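TRAP RNA was sequenced in paired ends. The labels name a SmartSeqv4 kit, and the use of strand in counting is not given in the sources used here. Per the labels, the authors used Trimmomatic 0.39, STAR 2.7.0f on GRCm38 and Cufflinks 2.2.1, with loci assembled from sorted PCs. The deposited values are a signal: estimated fragments per locus divided by 1 factor per library, with isoforms and shared reads split by the program, so that a 0 can be a failed estimate. The authors' groups are labelled CC and WW, read as mutant and control after the methods of the study. The sorted-cell table was not used, nor were the fold changes and p-values in the study's gene lists, from which only the pairing of locus and symbol was taken. Every deposited TRAP column was assigned to a sample.

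Values were tested as log2(value + 1) with limma 3.58.1 in R 4.3.3 (lmFit and eBayes) on the 6 libraries, at a mean of 2 or more, with the study's thresholds (unadjusted p under 0.01, fold change above 2) and Benjamini-Hochberg adjustment over all loci beside them. Each other comparison was fitted on its own 6 libraries. SE and 95% intervals are limma's. The signal is not a count, so neither edgeR nor DESeq2 was run, and the median of ratios stands in for TMM. As an alternative, limma-voom was run on values divided by the value of 1 fragment. Classes, positions and sequences of genes came from GENCODE M21 with Python 3.11.15 and pandas 2.3.3, and figures from matplotlib 3.10.9. The fit was also run on simulated data in which every locus had the same negative binomial dispersion. No outlying library was simulated, so that run says nothing about calls that turn on single libraries. The sequence and values of 1 rRNA locus are not reported here. Depth was 2472846 to 6380042 fragments per library, which limits low loci most.

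Named loci were the 12 largest changes each way past the thresholds without overlap between groups, list members past the thresholds, the extremes of lists with none, Shank2, Cdk16, Dis3, Itpr1, Doc2b and Camk2a, and loci at an adjusted p under 0.05. Dck, Gm24601, Fkbp1a, Gad1, n-R5s213, Gm25675, Snord13, Rnu12, Rny3, the cell type markers and the loci of the closing section were named after their values were seen. The members and lists were chosen with earlier results of these data known. Alternatives were other scalings, pseudocounts, filters and variance models, a fit over all 12 TRAP libraries, a replicate block and leaving out each library. Each animal gave 1 library, so the p-values measure the spread between these animals.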

Additional observations from a re-analysis of the deposited data

Results flagged for a closer look

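Genotype and rapamycin were tested for an interaction over the 12 TRAP libraries, and 5 of the 911 named loci tested had an adjusted p under 0.05 (limma), beside 12 of all 9174 loci tested (0.131%). All 5 were listed at 0 in every treated control library, were chosen here after their values were seen, and have no interpretable interaction fold. Rad50, a subunit of a DNA repair complex, had an adjusted interaction p of 0.0312 (limma), with log2 values of 3.33, 2.95 and 3.07 in the treated mutants, 4.36, 3.38 and 3.04 in the untreated controls and 1.57, 2.00 and 1.90 in the untreated mutants. Pitrm1, a mitochondrial peptidase, had an adjusted p of 0.0340, with 4.99, 5.28 and 4.93 in the treated mutants, 4.53, 4.26 and 3.73 in the untreated controls and 5.22, 5.22 and 4.95 in the untreated mutants. Pcdhb16, a protocadherin whose locus overlaps the gene only in part, had an adjusted p of 0.0342, with 2.68, 3.38 and 3.59 in the treated mutants, 3.78, 3.95 and 3.79 in the untreated controls and 2.78, 3.53 and 3.15 in the untreated mutants. Khdc3, a KH-domain gene, had an adjusted p of 0.0342, with 2.68, 3.98 and 3.07 in the treated mutants, 4.42, 3.89 and 3.95 in the untreated controls and 3.15, 3.33 and 3.38 in the untreated mutants. Sec22a, a trafficking gene, had an adjusted p of 0.0382, with 2.68, 2.68 and 2.23 in the treated mutants, 2.97, 3.19 and 3.60 in the untreated controls and 2.30, 2.00 and 2.47 in the untreated mutants. In this comparison none of the 5 passed the thresholds.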

How the results depend on the processing

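The comparison gave 77 loci past the thresholds, 45.5% of them lower, 6 at an adjusted p under 0.05 and a median log2 fold change of 0.0083. With equal library totals it gave 117 past the thresholds, 85.5% lower and a median of -0.35. With a pseudocount of 10 it gave 121, 60.3% lower, and with a pseudocount of 0.1 it gave 41. Without the filter 218 passed. With a minimum mean of 5 it gave 51, 76.5% lower, and 3 at an adjusted p under 0.05. With an intensity trend 67.1% were lower, with limma-voom the median was 0.048, and with all 12 TRAP libraries in 1 fit 1 locus met the adjusted threshold. Leaving out each library in turn gave 56 to 121 past the thresholds, 5 to 6 at an adjusted p under 0.05, 14.3 to 80.9% lower and medians of -0.034 to 0.082. The count of 121 came without control 2. The share lower was 69.7, 80.9 and 62.1% without treated mutants 1, 2 and 3, and 14.3, 22.3 and 15.3% without controls 1, 2 and 3. Of the 77 loci, 21 to 36 kept their call without 1 library and 26 to 72 under the other planned settings, apart from the minimum mean of 5, where 9 of the 77 were tested and all 9 kept it. With the 6 loci listed at 0 in the controls left out, an alternative chosen after seeing the data, 0 met the adjusted threshold.

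Replicate numbers did not pair the libraries: same-numbered libraries had deviations correlated at -0.024, 0.0044 and 0.0091. With the replicate block 66 loci passed the thresholds, 45.5% lower, 3 met the adjusted threshold, the median was 0.0083, and 1 of the 33 rRNA loci passed downwards.

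The median of the 33 rRNA loci ran from -2.01 to -1.37 over the 18 settings tried, with all 33 below 0 where tested, and 0 to 26 of them passed downwards. The named loci past the thresholds gave 507 values over these settings, of which 306 kept the call, 201 lost it and none changed sign. Among the other named loci 12 of 518 values changed sign and 10 gained a call. With equal totals these were Cdk16 at -0.095, Doc2b at -0.31 and Itpr1 at -0.34. Leaving out each library in turn, Doc2b ran from -0.12 to 0.39 (-0.12 without treated mutant 1, -0.05 without treated mutant 3 and -0.05 without control 2), Itpr1 from -0.091 (without treated mutant 2; -0.07 without control 3) to 0.14 and Prkag2 from -1.01 to 0.47 (without treated mutant 2). Without control 1 the upper end of Camk2a, -0.56 to 0.026, and of Psmd8, -0.31 to 0.054, and the lower end of Tfap2b, -0.30 to 1.22, were reached. The cause was not tested. Low loci rest on few fragments, and those of the treated mutants on the shallower libraries.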
